A study of Homo sapiens with 4 samples.

Results

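RA is made from retinol in 2 oxidations and is broken down by its own set of enzymes, and 9 genes of this cycle were followed: *STRA6*, *RDH10*, *DHRS3*, *ALDH1A1*, *ALDH1A2*, *ALDH1A3*, *CYP26A1*, *CYP26B1* and *CYP26C1*. They were chosen by gene symbol for their known roles in retinoid metabolism, were matched to Ensembl identifiers, and are 9 of the 60234 genes counted. All 9 were in the count table, and 7 of them had at least 4 reads, the detection limit used here, in every library.

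The samples were 4 RNA libraries from the NKX2.5:GFP hESC line, an established human embryonic stem cell line with GFP placed in 1 copy of the *NKX2-5* gene, whose fluorescence marks cells of the cardiac lineage. Cells were differentiated towards cardiomyocytes as spin embryoid bodies, and either 1 µM RA or DMSO, its solvent, was present from day 4 to day 7. The RA and the control (CTR) cultures were each sorted by GFP at day 31 by the series' labels, which gave RA GFP-positive, CTR GFP-positive, RA GFP-negative and CTR GFP-negative cells, with 1 library per group. All 4 groups share the same targeted line, and RA and CTR cells grew in separate cultures, so that an effect of RA and a difference between cultures cannot be told apart. By that day the sort came 24 days after RA was withdrawn, and the study's procedures place it slightly earlier. The question is therefore how the genes of RA production and removal stood weeks after the RA pulse, in the GFP-positive and in the GFP-negative cells.

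Retinol reaches cells bound to a plasma carrier and can enter through STRA6, a membrane receptor. RDH10 oxidises retinol to retinaldehyde, the reversible and rate-limiting oxidation in the embryo, and DHRS3 reduces retinaldehyde back to retinol. The retinaldehyde dehydrogenases ALDH1A1, ALDH1A2 and ALDH1A3 then form RA irreversibly, and the cytochrome P450 enzymes CYP26A1, CYP26B1 and CYP26C1 hydroxylate RA for disposal. RA binds nuclear receptors of the RAR family on DNA, often at pairs of AGGTCA-like repeats. In the embryonic heart, ALDH1A2 in the posterior mesoderm and later in the epicardium is a main source of RA, and RA favours an atrial over a ventricular fate. *CYP26A1* and *DHRS3* are well-known targets of RA.

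The counts summed to 28125727 reads in RA GFP-positive, 28643091 in CTR GFP-positive, 26222787 in RA GFP-negative and 4371101 in CTR GFP-negative cells. The CTR GFP-negative library was thus the shallowest, and 3 reads, the most that a count of 0 is taken to allow, came to 0.639 CPM (counts scaled to the same library total) there against 0.105 to 0.117 CPM elsewhere. The GFP-positive library had 40.9 times the *NKX2-5* CPM of the GFP-negative library in CTR and 47.5 times with RA, and the summed CPM of 6 cardiomyocyte markers was 14206 and 13700 in the GFP-positive libraries of CTR and RA against 671 and 344 in the GFP-negative libraries. Mitochondrial genes took 14.1% and 14.9% of the reads in the GFP-positive libraries and 7.48% and 5.56% in the GFP-negative ones, CTR first. CPM below carry TMM normalisation factors, intervals are 95% intervals of counting error, and no p-value is given because no group has a replicate.

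Among the RA to CTR ratios whose interval leaves out 1, those farthest from 1 belonged to the ALDH1A genes and *DHRS3*. To set these genes beside *CYP26A1*, the classic RA target, the stretches of DNA before their starts are shown first. Each is from RefSeq, was found once in GRCh37, and reads 5′ to 3′ on the strand of its gene. Capitals mark matches to AGNTCA pairs spaced by 1, 2 or 5 bases (DR1, DR2 and DR5, sites of the kind that RAR binds), to TATAAA and to CCAAT, searched on both strands in the 250 bases before the start.
CYP26A1, chr10:94833554-94833583: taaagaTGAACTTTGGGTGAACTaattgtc
ALDH1A1, chr9:75567973-75568219: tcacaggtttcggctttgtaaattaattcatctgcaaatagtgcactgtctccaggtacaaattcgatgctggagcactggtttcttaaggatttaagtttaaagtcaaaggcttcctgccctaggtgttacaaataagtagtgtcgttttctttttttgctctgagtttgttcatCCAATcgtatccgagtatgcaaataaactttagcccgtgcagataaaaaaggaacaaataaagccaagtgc
ALDH1A2, chr15:58357954-58357983: cggccctcacgtCCAATaagaagagcccca
ALDH1A3, chr15:101419953-101419982: ccggtcccgcagCCAATtaggcggccccct
DHRS3, chr1:12678217-12678394: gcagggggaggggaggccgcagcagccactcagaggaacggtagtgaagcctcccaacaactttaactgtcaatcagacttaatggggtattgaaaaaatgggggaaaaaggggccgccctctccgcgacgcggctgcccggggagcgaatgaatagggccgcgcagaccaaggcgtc

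The *CYP26A1* stretch holds a DR5 match, on the strand opposite to the gene, from base -90 to base -74 before the second of its 2 RefSeq starts. Of 35116 windows of 250 bases before RefSeq starts, 0.0655% held AGNTCANNNNNAGNTCA, 0.0342% held AGNTCANNAGNTCA and 0.0940% held AGNTCANAGNTCA. No other window of a member held 1 of these 3 pairs, and *RDH10* was not searched. The 3 *ALDH1A* genes each held a CCAAT at a similar place, starting at base -74 in *ALDH1A1*, -62 in *ALDH1A2* and -71 in *ALDH1A3*. CCAAT, held by 32.0% of all windows at some place, was also found in other members. It started at base -108 in *CYP26A1*, at -121 and -37 in *CYP26C1*, and at -146 and -147 in windows of *STRA6*. The window before the other start of *ALDH1A2* held none. TATAAA, found in 10.7% of windows, lay at base -31 in *CYP26A1* and base -27 in *CYP26C1*, the only members with it within 50 bases of a start. The shown stretch of *DHRS3* held none of the motifs. These matches describe letters and are not binding sites that were measured here.

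**Figure D1:**
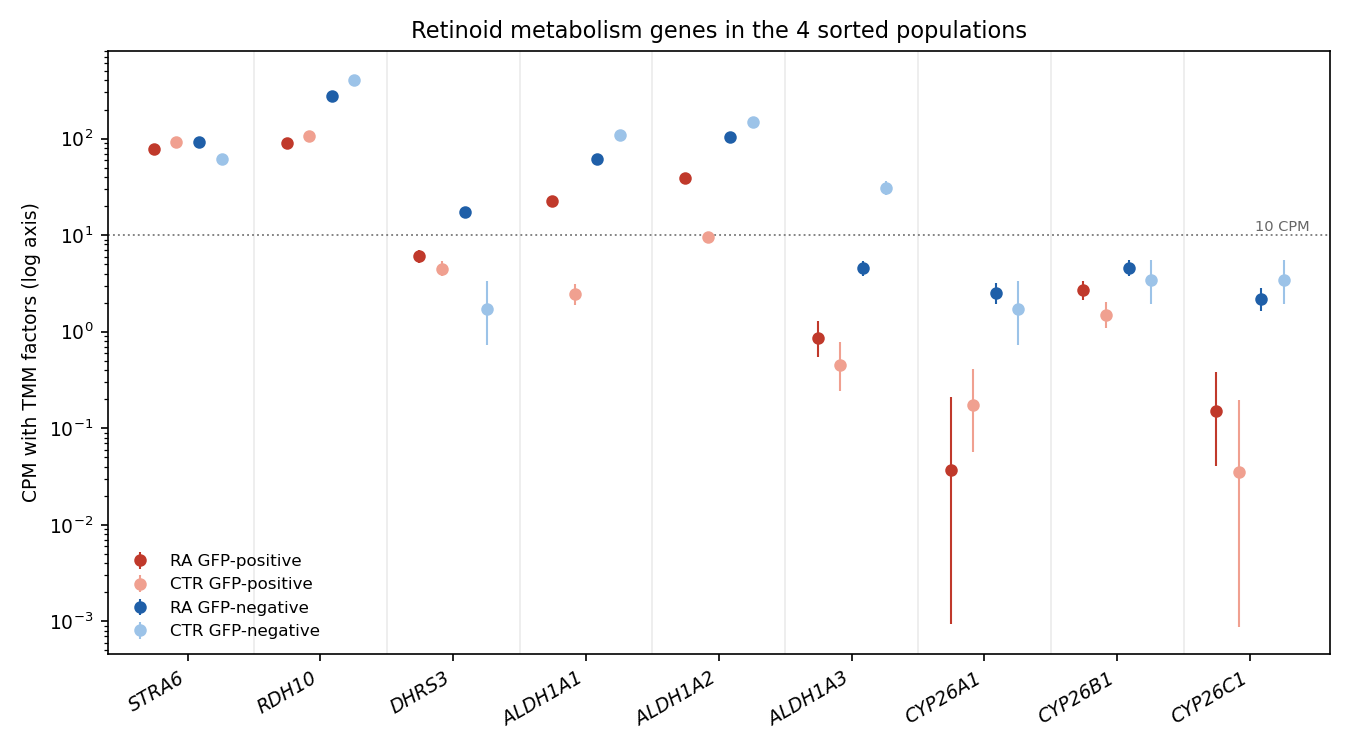
CPM with TMM factors (log axis) of the 9 genes in the 4 libraries, with exact Poisson 95% intervals of counting error as bars and a dotted line at 10 CPM. *STRA6* and *RDH10* stand above 60 CPM in every library, the ALDH1A genes are lowest in CTR GFP-positive cells, and the CYP26 genes stay under 5 CPM throughout.

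Uptake. *STRA6* (ENSG00000137868; GRCh37 chromosome 15, 74471807 to 74504608, minus strand, 19 exons in its canonical transcript) stayed within 2-fold across the 4 libraries. It was read 2082 times in RA GFP-positive, 2620 in CTR GFP-positive, 2377 in RA GFP-negative and 288 in CTR GFP-negative cells, or 77.9, 91.4, 92.6 and 61.3 CPM. With RA it was lower in GFP-positive cells, at a ratio of 0.851 (0.803 to 0.902), and higher in GFP-negative cells, at 1.51 (1.34 to 1.71). GFP-positive cells had 1.49 times the CPM of GFP-negative cells in CTR (1.32 to 1.69) and 0.840 times with RA (0.792 to 0.892). Each of the 4 intervals leaves out 1, and each difference is less than 2-fold. On the opposite strand *CCDC33* shares 519 exon bases with *STRA6*, and counting without strand leaves reads on shared bases uncertain.

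Retinol oxidation. *RDH10* (ENSG00000121039; chromosome 8, 74206837 to 74237516, plus strand) was the highest of the 9 genes per kb of union exon in every library, while per kb of canonical transcript *STRA6* exceeded it in both GFP-positive libraries, and it was higher in GFP-negative cells. It had 2419, 3066, 7013 and 1895 reads in RA GFP-positive, CTR GFP-positive, RA GFP-negative and CTR GFP-negative cells, which is 90.5, 107, 273 and 404 CPM. The GFP-positive level was 3.77-fold lower than the GFP-negative level in CTR (3.56 to 4.00) and 3.02-fold lower with RA (2.88 to 3.17). RA cells had the lower level in both fractions, at a ratio of 0.845 (0.801 to 0.892) in GFP-positive and 0.677 (0.644 to 0.713) in GFP-negative cells.

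Retinaldehyde reduction. *DHRS3* (ENSG00000162496; chromosome 1, 12627939 to 12678216, minus strand), which opposes RDH10, had its highest level in RA GFP-negative cells. Reads numbered 161 in RA GFP-positive, 129 in CTR GFP-positive, 441 in RA GFP-negative and 8 in CTR GFP-negative cells, or 6.02, 4.50, 17.2 and 1.70 CPM, and only RA GFP-negative cells passed 10 CPM. In GFP-negative cells the RA level was 10.1 times the CTR level (5.07 to 23.5), and the width of the interval comes from the 8 reads of the shallow CTR library. In GFP-positive cells the ratio was 1.34 (1.05 to 1.70). The order of the fractions was opposite in the 2 cultures, with GFP-positive cells 2.64-fold higher in CTR (1.30 to 6.25) and 2.85-fold lower with RA (2.38 to 3.44).

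The marker genes of gut and liver endoderm were higher with RA in the GFP-negative cells, as *DHRS3* was. All 8 of them were detected with RA and 4 of 8 in CTR, where *APOA2* and *FOXA2* had no read, and their summed CPM was 729 with RA and 11.9 in CTR. *AFP*, an alpha-fetoprotein gene of yolk sac and fetal liver, was at 465 CPM with RA and 2.98 in CTR. Endoderm was not the only list to be higher with RA there. The summed CPM of fibroblast and stroma, amnion and surface ectoderm, neural and pluripotency markers was higher too, and that of the other lists was lower. The part of any of these cell types in the *DHRS3* level was not tested. In bulk RNA, fewer cells of a type and less RNA per cell cannot be told apart, here or in any later comparison.

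RA synthesis. *ALDH1A1* and *ALDH1A2* were both higher in GFP-positive cells after RA and both lower in GFP-negative cells after RA. *ALDH1A1* (ENSG00000165092; chromosome 9, 75515587 to 75695358, minus strand) had 598 reads in RA GFP-positive and 70 in CTR GFP-positive cells, at 22.4 and 2.44 CPM. The ratio was 9.15 (7.14 to 11.9), or 2.76 on the log2(CPM + 1) scale. Its reads in GFP-negative cells were 1563 with RA and 509 in CTR, at 60.9 and 108 CPM, for a ratio of 0.562 (0.508 to 0.622). The CTR GFP-positive library therefore had by far the lowest level, 44.4-fold under the CTR GFP-negative library (34.5 to 57.8), whereas RA GFP-positive cells were 2.72-fold under RA GFP-negative cells (2.48 to 3.00).

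*ALDH1A2* (ENSG00000128918; chromosome 15, 58245622 to 58790065, minus strand), the enzyme that makes most RA in the early embryo, followed the same order. It had 1050, 271, 2641 and 695 reads in RA GFP-positive, CTR GFP-positive, RA GFP-negative and CTR GFP-negative cells, corresponding to 39.3, 9.46, 103 and 148 CPM. The RA to CTR ratio was 4.15 (3.63 to 4.76) in GFP-positive and 0.695 (0.639 to 0.757) in GFP-negative cells. GFP-positive cells were 15.7-fold lower than GFP-negative cells in CTR (13.6 to 18.1) and 2.62-fold lower with RA (2.44 to 2.82). The difference between the fractions in how each of these genes stood after RA was not tested, since a group of 1 library has no spread.

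*ALDH1A3* (ENSG00000184254; chromosome 15, 101417919 to 101456831, plus strand), best known from the developing eye and forebrain, had the same order of libraries at lower levels. It had 23 and 13 reads in RA and CTR GFP-positive cells, at 0.860 and 0.454 CPM, and the ratio of 1.90 had an interval that includes 1 (0.921 to 4.07). The GFP-negative cells gave 116 reads with RA and 145 in CTR, at 4.52 and 30.9 CPM, so that RA cells were 6.83-fold lower (5.31 to 8.80). The CTR GFP-negative library alone passed 10 CPM. *ALDH1A3* shares 33.3% of its exon bases with other genes, 1715 of these with the antisense gene *ALDH1A3-AS1*, which itself had 0 and 2 reads in RA and CTR GFP-positive cells and 14 and 6 in RA and CTR GFP-negative cells. Its counts are therefore less certain than those of the other ALDH1A genes.

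Markers of several cell types also differed between RA and CTR. In GFP-positive cells the 6 fibroblast and stroma markers were each higher with RA, and their summed CPM was 13308 with RA and 3544 in CTR. The summed CPM of the 7 epicardium and mesothelium markers, all detected, was 54.5 with RA and 84.5 in CTR, but *TCF21*, at 7.78 and 1.47 CPM, and *BNC1*, at 11.4 and 9.77, were higher with RA. Endothelial markers were at 16.3 and 16.9 CPM, with *KDR* lower with RA, at 9.68 and 14.8 CPM, the other 4 higher and *VWF* at 0 reads in CTR. Endoderm markers were at 41.7 and 9.04 CPM, and *APOA2*, *HNF4A*, *FOXA2* and *CDX2* had no read in CTR. Amnion and surface ectoderm markers were at 144 and 46.3 CPM, of which *IGFBP3* alone gave 126 and 40.6 CPM. Neural markers were at 411 and 273 CPM, of which *NES* alone gave 363 and 266 CPM. *STMN2*, a neuronal stathmin, had 42.5 CPM with RA and 1.26 in CTR, and *SOX1* was at 0 reads with RA. Retina and pigment epithelium markers were at 90.6 and 114 CPM, with *SIX6* and *RLBP1* at 0 reads with RA, and pluripotency markers at 2.21 and 0.244 CPM, with *NANOG* at 0 reads in CTR. The part of these cells in the *ALDH1A1* and *ALDH1A2* levels was not tested.

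In GFP-negative cells the 11 markers of retina and pigment epithelium, tissues that express ALDH1A enzymes in the embryo, summed to 86.7 CPM with RA and 752 in CTR. *RPE65* was at 0 reads in CTR and had 0.0779 CPM with RA, whereas *PMEL*, a melanosome gene, was at 48.2 and 444 CPM. Epicardium and mesothelium markers were at 443 and 781 CPM, fibroblast and stroma markers at 49055 and 25675 CPM, and amnion and surface ectoderm markers at 2108 and 1000 CPM, RA first. Of the amnion and surface ectoderm sum, *IGFBP3* alone gave 1927 and 960 CPM. In the epicardial list *MSLN* alone was higher with RA, at 22.8 and 18.5 CPM. Endothelial markers were at 262 and 280 CPM, and went both ways, with *KDR* at 142 and 204 CPM and *CDH5*, *TEK* and *TIE1* at 41.7, 33.1 and 41.0 CPM with RA and 35.6, 18.5 and 18.1 in CTR. Neural markers summed to 245 and 231 CPM, with *STMN2* higher with RA, at 72.7 and 16.8 CPM, *SOX2*, *DCX* and *NES* lower, at 14.3, 2.73 and 154 CPM against 33.6, 14.1 and 166, and *POU3F2* at 0 reads in CTR. Pluripotency markers summed to 27.1 and 2.13 CPM, with *POU5F1* and *NANOG* at 0 reads in CTR. Whether these cells had a part in the ALDH1A levels there was not tested.

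**Figure D2:**
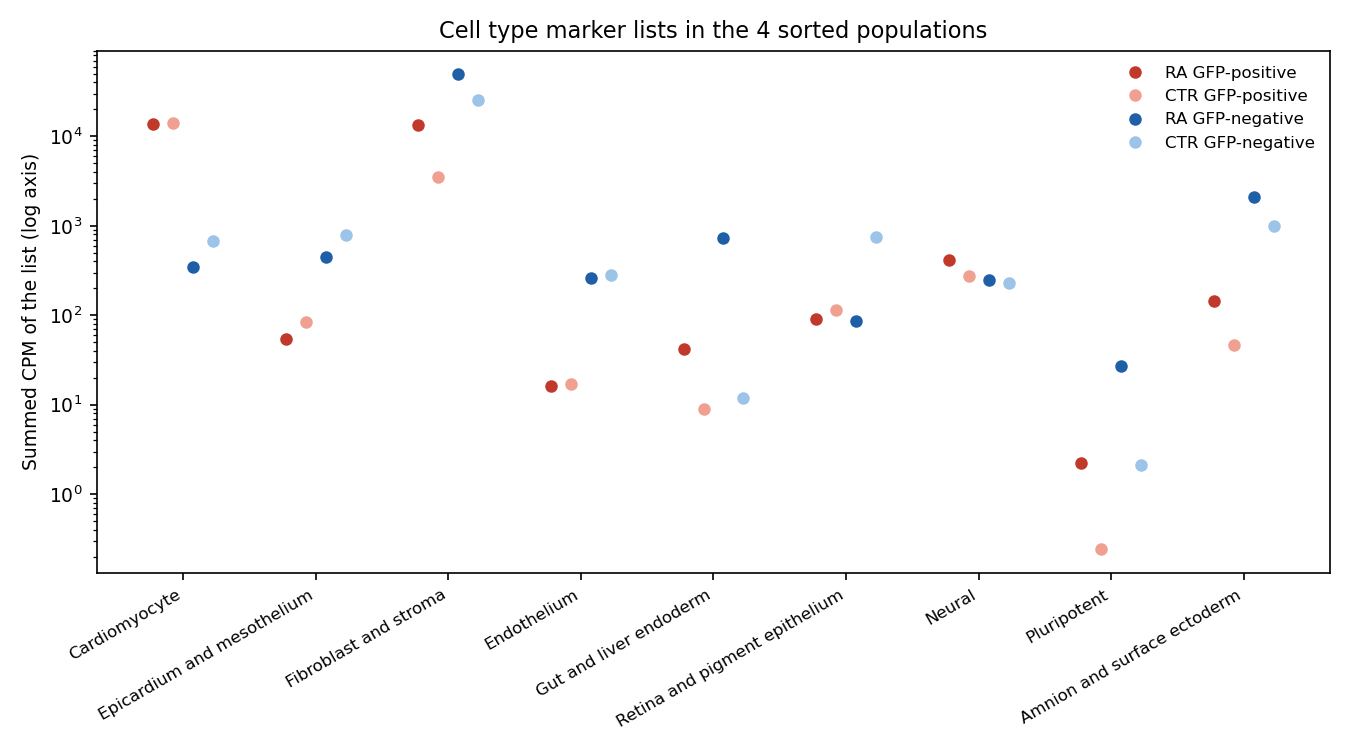
Summed CPM (log axis) of 9 lists of cell type markers in the 4 libraries, 1 point per library. Fibroblast and stroma markers stand higher with RA than in CTR in both fractions, endoderm markers reach 729 CPM in RA GFP-negative cells, and retina and pigment epithelium markers reach 752 CPM in CTR GFP-negative cells.

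The sum of the 3 ALDH1A genes, as CPM per kb of exon, was 12.9 in RA GFP-positive, 2.11 in CTR GFP-positive, 35.0 in RA GFP-negative and 62.2 in CTR GFP-negative cells. *ALDH1A1* made up 61.2%, 40.8%, 61.4% and 61.4% of this sum and *ALDH1A2* 37.5%, 55.2%, 36.2% and 29.3%, in that order. *ALDH1A3* was the smallest part in every library, from 1.25% in RA GFP-positive to 9.31% in CTR GFP-negative cells. Which paralog leads depends on the length assumed for each gene. Over the union of all annotated exons (2840 bases for *ALDH1A1*, 8127 for *ALDH1A2*) *ALDH1A1* leads in 3 libraries, but over the canonical transcript (2096 and 3386 bases) *ALDH1A2* took 51.5% in RA GFP-positive, 68.3% in CTR GFP-positive and 50.0% in RA GFP-negative cells, and *ALDH1A1* led with 49.6% only in CTR GFP-negative cells. The lower share of *ALDH1A1* in CTR GFP-positive cells than in the other libraries was found with both lengths.

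**Figure D3:**
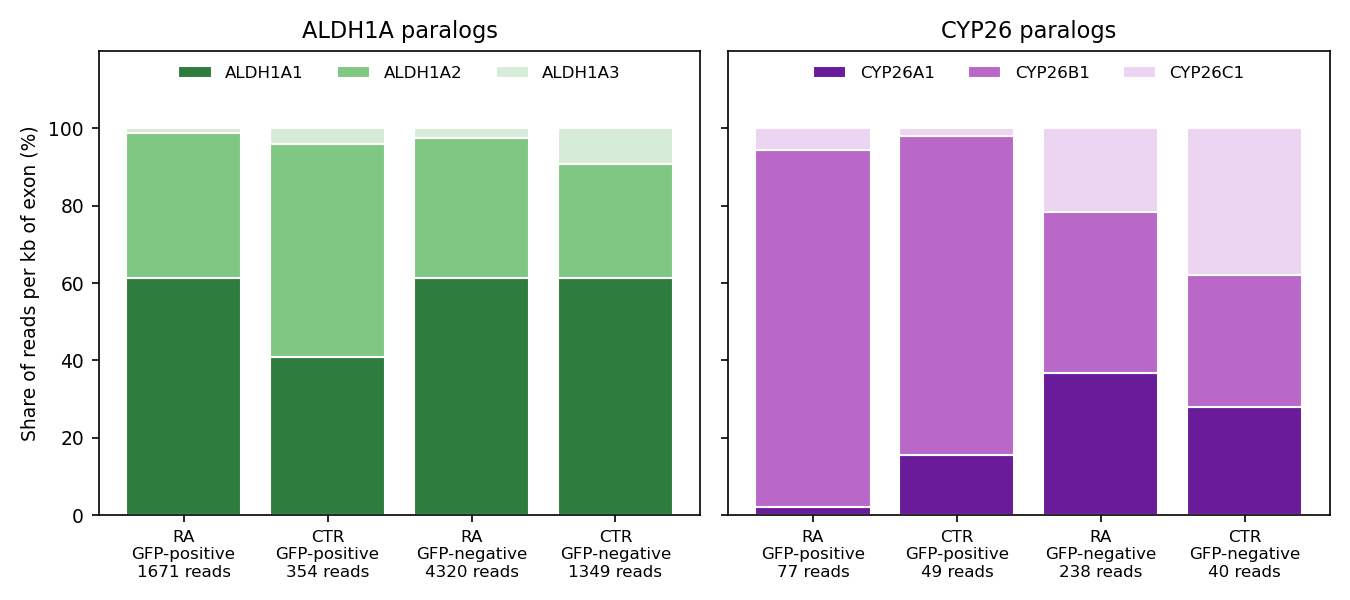
Share of reads per kb of union exon (%) taken by each paralog of the ALDH1A family (left) and the CYP26 family (right) in each library, with the family's raw reads under each bar. *ALDH1A2* leads the ALDH1A family only in CTR GFP-positive cells, *CYP26B1* takes over 80% of the CYP26 family in both GFP-positive libraries, and some CYP26 bars rest on as few as 40 reads.

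RA breakdown. The 3 CYP26 genes were low in all 4 libraries, under 5 CPM each, and the GFP-negative fraction had the higher level of each in both cultures. *CYP26A1* (ENSG00000095596; chromosome 10, 94833232 to 94837642, plus strand), the gene with the DR5 match shown above, had 1 read in RA GFP-positive, 5 in CTR GFP-positive, 64 in RA GFP-negative and 8 in CTR GFP-negative cells. Its CPM were 0.0374, 0.174, 2.49 and 1.70. The RA to CTR ratio was 0.214 in GFP-positive (0.00453 to 1.92) and 1.46 in GFP-negative cells (0.700 to 3.54), and both intervals include 1, so that a difference between RA and CTR was not detectable at this depth. GFP-positive cells were at 0.102 times the level of GFP-negative cells in CTR (0.0264 to 0.355) and at 0.0150 times with RA (0.000374 to 0.0866).

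*CYP26B1* (ENSG00000003137; chromosome 2, 72356367 to 72374991, minus strand), which limits RA in limb buds and fetal germ cells, had 72, 43, 118 and 16 reads in RA GFP-positive, CTR GFP-positive, RA GFP-negative and CTR GFP-negative cells. These are 2.69, 1.50, 4.60 and 3.41 CPM, with the GFP-negative libraries higher than the GFP-positive ones. The RA to CTR ratio was 1.79 (1.21 to 2.68) in GFP-positive and 1.35 (0.797 to 2.44) in GFP-negative cells, and the latter interval includes 1.

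*CYP26C1* (ENSG00000187553; chromosome 10, 94820555 to 94829297, plus strand), which lies next to *CYP26A1* and is known from the hindbrain and head, had 4, 1, 56 and 16 reads in the same order, or 0.150, 0.0349, 2.18 and 3.41 CPM. Its RA to CTR ratio was 4.29 in GFP-positive (0.424 to 211) and 0.640 in GFP-negative cells (0.362 to 1.20), with 1 inside both intervals. An annotated long non-coding RNA gene shares 750 exon bases with *CYP26A1* and 826 with *CYP26C1*. It is not among the genes counted, so no reads were assigned to it.

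The 3 CYP26 genes together came to 0.603 and 0.377 CPM per kb in RA and CTR GFP-positive cells and to 2.29 and 2.06 in RA and CTR GFP-negative cells. *CYP26B1* took 92.2% and 82.3% of the sum in the GFP-positive libraries and 41.5% and 34.2% in the GFP-negative ones, RA first. The ALDH1A sum was therefore larger than the CYP26 sum per kb of exon in each of the 4 libraries, and this compares RNA and not enzyme activity.

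**Figure D4:**
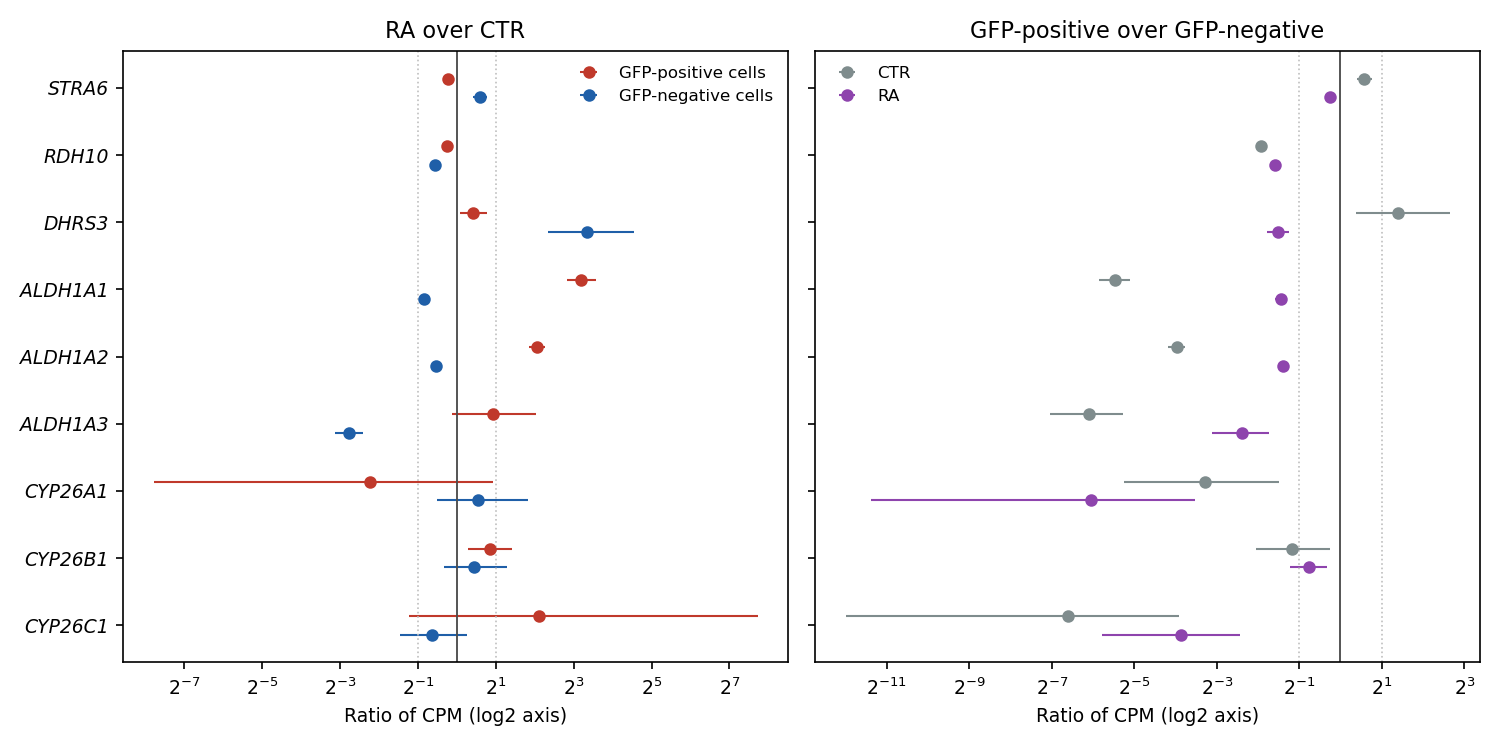
Ratio of CPM (log2 axis) for each gene, RA over CTR in GFP-positive and GFP-negative cells (left) and GFP-positive over GFP-negative cells in CTR and RA cultures (right), with Clopper-Pearson 95% intervals of counting error and dotted lines at 2-fold. In GFP-positive cells *ALDH1A1* (9.15), *ALDH1A2* (4.15), *CYP26C1* (4.29) and *CYP26A1* (0.214) lie past the 2-fold lines, the last 2 with intervals that include 1, and in GFP-negative cells *DHRS3* (10.1) and *ALDH1A3* (0.146) do.

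A gene was counted as different where log2(CPM + 1) differed by at least 1, a 2-fold change, among genes that reached 10 CPM in 1 library of the pair or in both. The 4 comparisons use each library in 2 of them, so they are not independent. The median difference over all genes that passed the filter was 0.02 between GFP-positive cells, 0.08 between GFP-negative cells, 0.08 between the CTR fractions and 0.02 between the RA fractions. Between RA and CTR GFP-positive cells, 4 of the 9 genes passed the filter, and 2 of them, *ALDH1A1* and *ALDH1A2*, were higher with RA and 0 were lower. Of all 11186 genes that passed, 4.14% were higher and 1.67% lower. Between RA and CTR GFP-negative cells, 6 genes passed, with *DHRS3* higher and *ALDH1A3* lower, against 4.95% higher and 3.18% lower of 11606 genes. Between the fractions of the CTR culture, 5 genes passed and 4 were lower in GFP-positive cells, namely *RDH10* and the 3 ALDH1A genes. The background there was 13.3% lower and 11.9% higher of 11806 genes. Between the fractions of the RA culture, 5 passed and 4 were lower in GFP-positive cells, namely *RDH10*, *DHRS3*, *ALDH1A1* and *ALDH1A2*, where 12.4% of 11850 genes were lower and 9.97% higher. A gene could pass the filter through the library in which it was high, so that the members that passed are not a sample of all 9.

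With a lower filter of 1 CPM, 2, 2, 7 and 7 members differed at least 2-fold in either direction in these comparisons, in the order above, and without any filter the counts were the same. The members added in the fraction comparisons were *CYP26A1* and *CYP26C1* in both, *DHRS3* in CTR, and *ALDH1A3* with RA. All of them were lower in GFP-positive cells but *DHRS3*. All of these added members came to less than 2-fold with a pseudocount of 5 CPM. The share of all genes different in either direction was 7.21%, 16.3%, 31.1% and 24.3% with the 1 CPM filter and 2.09%, 5.04%, 9.69% and 7.29% without a filter, which takes in genes with no read. At a threshold of 4-fold and at least 10 CPM, 1, 2, 3 and 0 members differed, and the share of all genes was 1.44%, 1.8%, 10.1% and 7.94%. The genes that passed 4-fold were *ALDH1A1* between GFP-positive cells, *DHRS3* and *ALDH1A3* between GFP-negative cells, and the 3 ALDH1A genes between the fractions of CTR.

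Levels were ordered within each library as CPM per kb of union exon. *RDH10* came first in every library, at 17.0, 20.1, 51.3 and 75.7 CPM per kb in RA GFP-positive, CTR GFP-positive, RA GFP-negative and CTR GFP-negative cells. *STRA6* was next in both GFP-positive libraries, at 10.2 with RA and 11.9 in CTR, and *ALDH1A1* was next in both GFP-negative libraries, at 21.4 with RA and 38.2 in CTR. By canonical transcript length *STRA6* came before *RDH10* in both GFP-positive libraries and right after it in RA GFP-negative cells. The intervals of *DHRS3* (1.28 CPM per kb), *ALDH1A2* (1.16) and *ALDH1A1* (0.860) in CTR GFP-positive cells overlapped from each to the next, as did those of *ALDH1A3*, *CYP26A1* and *CYP26C1* at the bottom. With RA, *CYP26C1* and *CYP26A1* could not be ranked in GFP-positive cells. In RA GFP-negative cells those of *ALDH1A2* (12.7) and *STRA6* (12.1) overlapped, as did those of *CYP26B1* (0.950), *ALDH1A3* (0.847) and *CYP26A1* (0.841). The CYP26 genes and *DHRS3* at the bottom of the CTR GFP-negative order, from 0.778 to 0.485 CPM per kb, could not be ranked either.

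Further groups of retinoid genes, 4 in all, were listed beside the members. The first was retinoid binding and carriage: intracellular binding proteins, plasma carriers and lipid receptors, of which 10 of 12 genes were matched and *RBP3* and *STRA6L* were not analysed here. In GFP-positive cells 5 passed the filter, 3 were at least 2-fold higher with RA and 1 was lower, beside 4.14% and 1.67% over all genes, with a median log2 difference of 1.35 beside 0.02 over all genes tested. Over all 10 matched genes, whether or not they passed, the median was 0.19, so that the higher value belongs to the genes that passed. *CRABP2*, which carries RA to the nucleus, had 7105 reads with RA and 2463 in CTR, at 266 and 86.0 CPM, a ratio of 3.09 (2.95 to 3.24). *CRABP1*, a cytoplasmic RA binding protein, was at 11.7 and 4.01 CPM (ratio 2.93), and *FABP5*, a fatty acid binding protein that also binds RA, at 50.6 and 7.78 CPM (6.51). *CD36*, a fatty acid and lipoprotein receptor, had 116 reads with RA and 314 in CTR, 2.53-fold lower with RA (2.04 to 3.15). It is outside the naming rule and was chosen after its values were seen, as were the genes so marked below.

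In GFP-negative cells 6 genes of the binding list passed, with 1 at least 2-fold higher, 2 lower, beside 4.95% and 3.18% over all genes, and a median of -0.29 beside 0.08. Over all 10 matched genes the median was 0.08. *CRABP2*, at 197 CPM with RA and 82.6 in CTR, was higher. *CRABP1*, at 33.0 and 76.0 CPM, was lower, opposite to its direction in GFP-positive cells. *TTR*, a plasma carrier of retinol and thyroid hormone, which is made in liver, choroid plexus and retinal pigment epithelium, was 6.27-fold lower with RA, at 11.7 and 73.0 CPM. *SCARB1*, a lipoprotein and carotenoid receptor, was less than 2-fold different in both fractions, with ratios of 0.756 and 1.02.

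Of the 23 other retinol and retinaldehyde oxidoreductases, all matched, 6 passed the filter in the GFP-positive pair, with 1 higher and 0 lower beside 4.14% and 1.67% over all genes. In the GFP-negative pair 11 passed, with 2 higher and 1 lower beside 4.95% and 3.18%. In GFP-positive cells *DHRS9*, a retinol dehydrogenase, was the gene at least 2-fold different among the 6 that passed, with 11577 reads with RA and 3203 in CTR, at 433 and 112 CPM, a ratio of 3.87 (3.72 to 4.03). It was at 37.3 and 40.5 CPM in GFP-negative cells, so that RA GFP-positive cells had its highest level. *ADH1B*, an alcohol dehydrogenase of liver, did not pass there, with 60 reads with RA and 1 in CTR (ratio 64.3, 11.1 to 2581). *RDH11*, another retinol and retinaldehyde reductase, was at 70.7 and 69.6 CPM in GFP-positive cells. In GFP-negative cells *ADH1B* had 806 reads with RA and 0 in CTR, and with 3 reads put in place of the 0 it was at least 49.2-fold higher, and *DHRS4* was 2.38-fold higher. *ADH1B* and *DHRS4* were chosen after their values were seen. *CYP1B1*, a P450 enzyme that can oxidise retinol, was 2.28-fold lower with RA, at 65.5 and 149 CPM. The medians of the genes that passed were 0.05 in the GFP-positive and -0.11 in the GFP-negative pair, and over all 23 genes -0.02 and 0.41.

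All 10 genes of retinyl esters and carotenoids were matched. In GFP-positive cells 4 passed the filter and 0 were 2-fold different, beside 4.14% higher and 1.67% lower over all genes, with a median of 0.23 beside 0.02. In GFP-negative cells 3 passed, with a median of 0.37 beside 0.08 over all genes and -0.12 over all 10 of the list. There 0 were higher and 1 lower, beside 4.95% and 3.18%, and *BCO2*, a carotenoid-cleaving dioxygenase, was 2.94-fold lower with RA, at 8.03 and 23.6 CPM. *LRAT*, which forms retinyl esters for storage, had 87, 58, 53 and 6 reads in RA GFP-positive, CTR GFP-positive, RA GFP-negative and CTR GFP-negative cells and passed the filter in neither fraction.

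The last list held 21 known RA target genes outside the members, all matched, of which *CRABP2* also stands in the binding list. In GFP-positive cells 13 passed the filter, with a median of 0.21. *CRABP2* and *HOXB4*, a homeobox gene that was chosen after its values were seen and was at 28.9 and 12.2 CPM, were at least 2-fold higher and 0 were lower, beside 4.14% and 1.67% over all genes. In GFP-negative cells 15 passed, 6 were at least 2-fold higher and 0 were lower, beside 4.95% and 3.18% over all genes, with a median of 0.98 beside 0.08. Over all 21 genes the medians were 0.21 and 0.98. Besides *CRABP2* these were *RARB*, *RARG*, *HOXA2*, *HOXA3* and *HOXB2*, all chosen after their values were seen. *RARB*, the receptor gene that is itself induced by RA, was at 10.9 CPM with RA and 1.92 in CTR (ratio 5.69, 2.96 to 12.6), and in GFP-positive cells at 21.2 and 13.7 CPM (1.54, 1.35 to 1.76). *HOXA2* and *HOXA3* had no read in CTR GFP-negative cells, and with them at their bounds and no pseudocount for any gene the median was 1.01. *MEIS2*, *TGM2* and *TBX5* were less than 2-fold different in both fractions, with ratios of 1.16, 1.17 and 1.25 in GFP-positive and 1.53, 1.28 and 1.21 in GFP-negative cells.

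**Figure D5:**
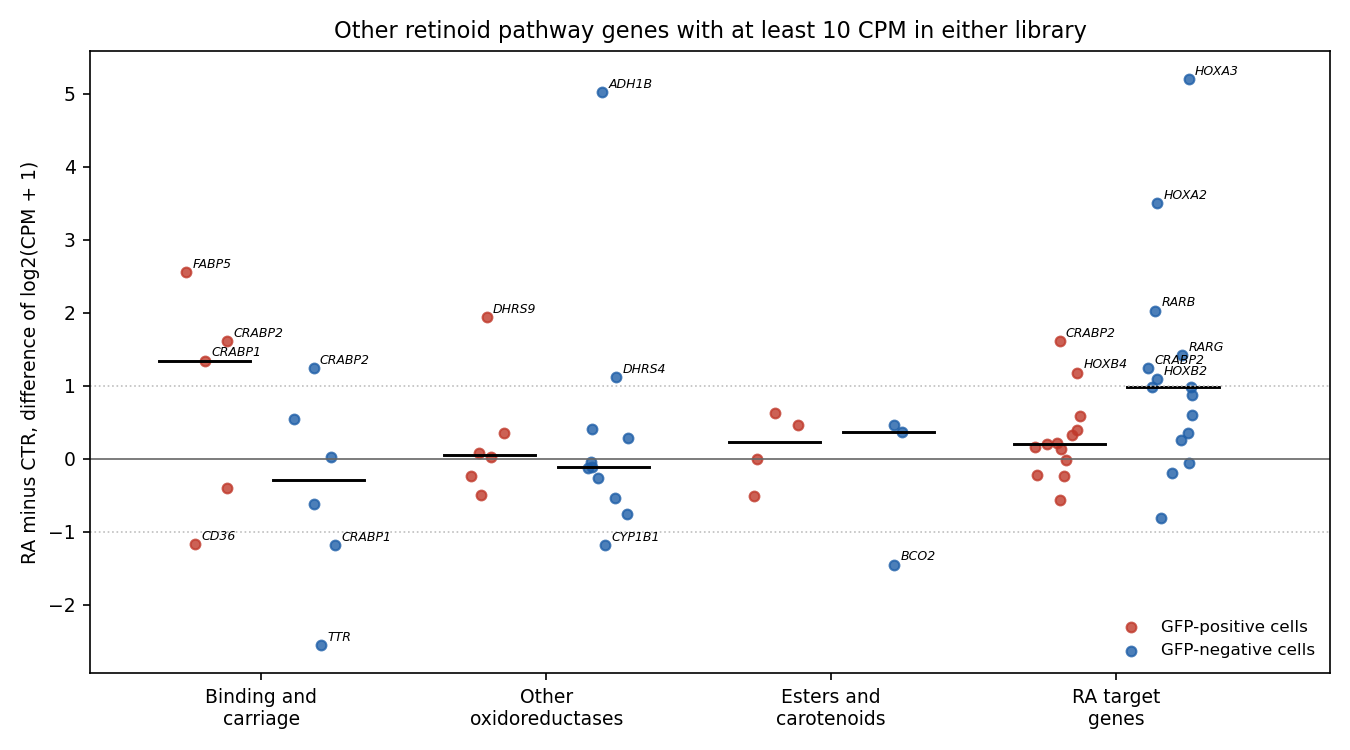
Difference of log2(CPM + 1), RA minus CTR, for each gene of 4 retinoid lists that reached 10 CPM in the RA or the CTR library, shown for both fractions. Black lines are medians, dotted lines mark 2-fold, genes past them are named, and horizontal spread within a column carries no value. Among the genes shown, the median of the binding list is 1.35 in the GFP-positive and -0.29 in the GFP-negative pair, against 0.19 and 0.08 over its 10 matched genes, and that of the RA targets is 0.21 and 0.98.

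Between the fractions of the CTR culture, 1 of the 6 binding genes that passed was higher in GFP-positive cells and 3 were lower. For the oxidoreductases the counts were 2 higher and 4 lower of 10, for the ester and carotenoid genes 0 and 0 of 4, and for the RA targets 4 and 1 of 13, beside 11.9% higher and 13.3% lower over all genes. With RA the counts were 1 and 3 of 6, 2 and 3 of 9, 2 and 0 of 4, and 2 and 3 of 15, in the same order of lists, beside 9.97% and 12.4% over all genes. *CRABP1* and *TTR* were among the genes lower in GFP-positive cells in both cultures, *CYP1B1* likewise, and *DHRS9*, *MEIS2* and *TBX5*, a cardiac T-box gene, were among those higher in both.

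The genes whose profile over the 4 libraries was most like that of each member that reached 10 CPM somewhere were taken from 12407 genes, by the Euclidean distance of log2(CPM + 1) values centred on their own mean. For *RDH10* they were *KIRREL2* (distance 0.06), *ZNF185* and *CDH24*. For *STRA6* they were *PTGES3P1* (0.04), *TTC38* and *SNRPB2*. For *DHRS3* they were *USH1C* (0.15), the gene ENSG00000241732 and *STAC*. The nearest profiles were farther from *ALDH1A1*, with *SULF2* (0.69), *LIF* and *EFEMP1*, and from *ALDH1A3*, with *SAA1* (0.53), *OR51E2* and *SIX3*, while *ALDH1A2* had *PAPPA* (0.27), *CCL2* and *TMSB4XP8*. *SULF2*, a heparan sulfate sulfatase, was at 69.1, 16.2, 296 and 335 CPM in RA GFP-positive, CTR GFP-positive, RA GFP-negative and CTR GFP-negative cells, and *PAPPA*, a metalloprotease, at 28.3, 5.72, 81.5 and 93.1 CPM. *SIX3*, an eye and forebrain gene, was at 0.0374, 0.279, 1.64 and 19.0 CPM. *PTGES3P1* and *TMSB4XP8* are pseudogenes that share sequence with their parent genes, so their counts are uncertain. With 4 libraries such a likeness describes these samples only.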

How the data were processed

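RNA from 4 sorted populations was analysed, 1 library per group. The authors prepared strand-specific paired-end libraries, trimmed the reads, aligned them to a custom hg19 genome with GSNAP, kept unique positions, handled alignments with SAMtools 0.1.18, and counted reads per Ensembl gene with HTSeq 0.6.1p1 without strand. The counts deposited by the authors are not normalised, and the Ensembl release is not given in the sources used here. Unique alignment can undercount genes with near-identical copies, and reads that lie wholly on exon bases shared by 2 genes are left out.

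Symbols were matched by Ensembl identifier for 55538 of 60234 genes. Gene positions and lengths are those of the GENCODE annotation on GRCh37, and start windows are RefSeq sequences matched exactly to that build. CPM used TMM factors of the 4 libraries (0.951 for RA GFP-positive, 1.00 for CTR GFP-positive, 0.979 for RA GFP-negative and 1.07 for CTR GFP-negative) from edgeR 4.0.16 in R 4.3.3. Differences are of log2(CPM + 1), which understates changes of low genes. Intervals are at the 95% level, Clopper-Pearson for ratios and exact Poisson for CPM. Since PCR copies count as reads, intervals and floors cover counting error only. No test between groups was made. Scripts were tested on simulated data.

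The members and lists were chosen with earlier results of these data known. A gene of the further lists is not reported here and was left out of their counts. The genes named were the 9 members, up to 6 genes per list with the most reads, the 3 most alike genes for each of the 6 members that reached 10 CPM in a library, and *NKX2-5*. Genes marked in the text, and single genes of the marker lists, were chosen after their values were seen. Alternatives were other scalings (library size, DESeq2 1.42.0 size factors, upper quartile, TMM per pair, library size after removal of mitochondrial and the 10 most-read genes), pseudocounts of 0.25 and 5 CPM, filters of 1 CPM and none, a 4-fold threshold, raw reads for paralog shares, and thinning to 4371101 reads. The plots were made in Python 3.11.15 (matplotlib 3.10.9).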

Additional observations from a re-analysis of the deposited data

Results flagged for a closer look

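For 3 of the 9 genes RA and CTR differed in opposite directions in the GFP fractions with intervals that leave out 1 in both. For the others with opposite signs, *ALDH1A3*, *CYP26A1* and *CYP26C1*, at least 1 interval includes 1. *ALDH1A1* was 2.76 higher on the log2(CPM + 1) scale with RA in GFP-positive cells and differed by -0.82 in GFP-negative cells, *ALDH1A2* by 1.94 and -0.52, and *STRA6* by -0.23 and 0.59. Each direction rests on 1 library per group, how the fractions differ was not tested, and each value contains any difference between the RA and CTR cultures.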

How the results depend on the processing

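No difference of a member reversed under any alternative. Of 72 values per comparison, direction was kept in all, except that *CYP26A1* between GFP-negative cells became 0 in the thinned reads. Each value's distance from the reported log2(CPM + 1) difference was set against the wider side of the ratio's counting interval, in log2 units. It was larger for 3 values between GFP-positive cells, 8 between GFP-negative cells, 7 between the CTR fractions and 5 between the RA fractions. A value within this distance can still lie outside the interval itself. With a pseudocount of 5 CPM *ALDH1A1* between GFP-positive cells went from 2.76 to 1.88, *DHRS3* between GFP-negative cells from 2.75 to 1.73 and *ALDH1A3* between the CTR fractions from -4.45 to -2.72 (log2). The scaling moved the median of all genes between GFP-negative cells from 0.08 with TMM to -0.05 with library size alone, and between the CTR fractions from 0.12 with TMM of the pair to -0.02. The count of members at least 2-fold different was 1 between GFP-positive cells and 0 between the RA fractions at 4-fold, and 7 in both fraction comparisons with the 1 CPM filter and without a filter. The added members fell under the 2-fold threshold with a pseudocount of 5 CPM, where *DHRS3* was at 0.50, *CYP26A1* at -0.37 and *CYP26C1* at -0.74 between the CTR fractions and *ALDH1A3* at -0.70, *CYP26A1* at -0.57 and *CYP26C1* at -0.48 between the RA fractions. Between the CTR fractions *DHRS3* was also under it by library size alone (0.96) and thinned (0.79), and *CYP26A1* thinned (-0.96).

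The paralog shares moved with the length and with depth. With raw reads *ALDH1A1* had 35.8% in RA GFP-positive, 36.2% in RA GFP-negative and 37.7% in CTR GFP-negative cells, *ALDH1A2* 76.6% in CTR GFP-positive cells and *CYP26B1* 49.6% in RA GFP-negative cells. Per kb of canonical transcript, an alternative chosen after seeing the data, these were 47.4%, 47.8%, 49.6%, 68.3% and 34.3%. In 1 random thinning *ALDH1A1* had 58.2% in RA GFP-positive and 64.3% in RA GFP-negative cells, *ALDH1A2* 48.6% in CTR GFP-positive cells, and *CYP26B1* 74.5% and 60.5% in RA and CTR GFP-positive cells. Depth limits the CYP26 genes and *DHRS3* most, with 8 to 16 reads each in CTR GFP-negative cells.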
